A study of Homo sapiens with 18 samples.

Results

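The genes described here encode the proteins of the human mitochondrial ribosome that carry an MRPL or MRPS symbol. They were taken by symbol alone, as the protein-coding genes of the count table whose names read MRPL or MRPS followed by a number and, for a few, a letter from A to C. This gave 78 genes of the 61860 in the table, of which 49 have MRPL symbols (large subunit) and 29 MRPS symbols (small subunit). They lie on 21 chromosomes, with at most 8 on any chromosome. MRPL53 had 0 counts in each of the 18 libraries, and the other 77 passed the filter on low counts and were tested. Their RNA was measured in the human embryonic stem cell line H1, in cells that carried lentiviral shRNA against NAT10 (called knockdown here) or a negative control shRNA (called control). NAT10 is the enzyme that acetylates cytidine in RNA. Cells of both genotypes also carried GFP, were sorted for it and were kept under puromycin, and the labels do not say how many shRNA sequences or clones were used. Actinomycin D, which blocks transcription, was given for 0, 1.5 or 3.5 h, with 3 libraries of polyadenylated RNA per genotype and time. The design text of the series names RNA stability as what the groups were compared for.

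The mitochondrial ribosome translates the few messages made inside mitochondria, all of which encode parts of the respiratory chain and ATP synthase. Its ribosomal RNAs come from mitochondrial DNA, whereas every one of its proteins is encoded in the nucleus, made in the cytosol and imported, so the subunit depends on many unlinked genes being expressed together. Some of the proteins descend from those of bacterial ribosomes, and others are found in mitochondria alone. The gene names follow history rather than position: MRPS30 and MRPS18A, despite their symbols, encode proteins that structures place in the large subunit, MRPL58 is a peptidyl-tRNA hydrolase of the release factor family built into the large subunit, and MRPS36 is now known as a subunit of the 2-oxoglutarate dehydrogenase complex. By textbook knowledge 46 of the 78 proteins have a bacterial counterpart and 32 do not.

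The promoters are shown because nuclear genes for mitochondrial proteins are known to be driven by ETS-family factors (such as GABP), NRF1 and YY1. RefSeq windows from 250 bases before to 50 bases after the annotated start (GRCh38.p14) were found for 69 of the 78 genes. Both strands were searched for an ETS core (CCGGAAG), an NRF1 site (GCATGCGC) and a YY1 site (AAGATGGCG). The ETS core was in the windows of 30 of the 69 genes (43.5%), against 16.5% of 15843 protein-coding genes and 12.2% of 27305 genes of all kinds. The YY1 site was in 13 (18.8%), against 3.21% of the protein-coding genes and 2.14% of all genes. The NRF1 site was in 6 (8.70%), against 4.89% and 3.68%. At least 1 of the 3 motifs was found in 40 of the 69 (58.0%), against 22.4% of protein-coding genes and 16.5% of all genes. The last letters of the ETS core, AAG, are the first of the YY1 site, so these motifs can overlap, and the NRF1 site can overlap itself on the opposite strand. A match is only a run of letters, and none of the factors was measured.

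The 150 bases before the start are printed for 4 genes whose RNA is described below: MRPS27, with the largest fall in knockdown cells and none of the 3 motifs in its window; MRPL48, which also fell and holds an ETS core; MRPL17, whose RNA was among the fastest lost of those with at least 5 CPM and which holds 3 NRF1 matches; and MRPL58, higher in knockdown cells under the block and with an ETS core beside its start. Sequences read 5′ to 3′ on the gene's strand, from RefSeq's GRCh38.p14 windows, and capitals mark the motif on either strand. In MRPL17 the first capital run holds 2 of the 3 matches, which overlap on opposite strands. MRPS27 lies on the minus strand at chr5:72320241-72320390, MRPL48 on the plus strand at chr11:73787724-73787873, MRPL17 on the minus strand at chr11:6683341-6683490 and MRPL58 on the plus strand at chr17:75012520-75012669.
MRPS27: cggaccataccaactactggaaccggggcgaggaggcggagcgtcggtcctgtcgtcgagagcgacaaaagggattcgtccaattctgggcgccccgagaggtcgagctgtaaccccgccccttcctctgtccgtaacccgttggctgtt
MRPL48: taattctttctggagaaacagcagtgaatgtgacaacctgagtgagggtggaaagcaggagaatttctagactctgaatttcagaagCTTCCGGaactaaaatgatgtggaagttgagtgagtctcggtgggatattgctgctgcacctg
MRPL17: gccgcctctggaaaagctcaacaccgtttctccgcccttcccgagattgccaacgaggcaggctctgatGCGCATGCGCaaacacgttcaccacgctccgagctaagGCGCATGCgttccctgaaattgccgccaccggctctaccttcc
MRPL58: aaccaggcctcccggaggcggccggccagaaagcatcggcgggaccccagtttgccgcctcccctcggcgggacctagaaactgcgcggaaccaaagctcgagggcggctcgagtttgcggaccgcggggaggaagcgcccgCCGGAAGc

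Libraries held 15037492 to 15519197 counts, of which 0.0857% to 0.544% came from the ERCC spike-in, synthetic RNAs of known make-up that were added after RNA purification and so do not measure RNA per cell. NAT10 itself lay between 17.2 and 24.1 CPM, the count scaled to a common library size in the 9 knockdown libraries, against 209 to 250.3 CPM in the 9 control libraries. The first knockdown library at 0 h stood apart: its counts differed from those of the other libraries of its group by 15.2 and 21.7 (chi-square per degree of freedom over genes), whereas those others differed from each other by 2.14. Of 12 embryonic stem cell markers 8 were lower at 0 h and none higher, against 28.3% lower and 23.8% higher of all genes tested. Their summed level was 10713 to 11211 CPM in knockdown and 12678 to 13209 CPM in control libraries. Of 12 fibroblast and stroma markers 8 were tested, 5 were higher and 2 lower, and the sum ran from 1389 to 1834 CPM in knockdown and from 691 to 751 CPM in control libraries. COL3A1, LUM, DCN and FAP of that list were under 1 CPM in every library, and FAP was at 0. Of 10 neural ectoderm markers 5 were tested and 3 were higher, with sums of 1164 to 1226 CPM in knockdown and 517 to 659 CPM in control libraries. PAX6, SOX1, OTX1, NEUROG2, ZIC1 and LHX2 of that list stayed under 1 CPM. Trophoblast markers summed to 7.34 to 8.92 CPM in knockdown and 2.34 to 3.65 CPM in control libraries, and mesoderm markers to 3.20 to 4.34 CPM and 1.76 to 2.28 CPM, with 1 marker of each list higher at 0 h. Endoderm markers were each under 1 CPM. The part of these markers, and of the library that stood apart, in the results below was not tested beyond the values without that library. The labels do not say that libraries of a group are separate cultures, and p-values here cover the spread between libraries, which may be technical.

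The 77 tested genes had very different measured levels. Their mean over the 18 libraries ran from 2.02 to 234 CPM with a median of 37.9 CPM, and 5 genes (MRPS24, MRPS17, MRPS5, MRPL46 and MRPL23) were under 5 CPM. Per kilobase of annotated exon, the level in control cells at 0 h ran from 0.466 CPM for MRPS5 to 86.3 CPM for MRPL51, with a median of 14.9 CPM. MRPL51, MRPL3, MRPL15 and MRPS34 had the highest levels per kilobase, at 72.8, 67.5, 63.4 and 75.9 CPM in knockdown cells and 86.3, 85.1, 76.2 and 76.1 CPM in control cells at 0 h. Since the strand setting of the counting is not given in the sources used here, genes that share exonic bases with a neighbour are uncertain: this holds for 41 of the 78, and 25 share at least 10% of their exonic bases. Among these are MRPL12, MRPS12, MRPS18A, MRPS18C, MRPS25, MRPL33, MRPL38 and MRPL44, named below. MRPL51 shares 31.3% with NCAPD2 on the other strand, which had 76914 counts over all libraries against 36384 for MRPL51. Overlaps on the same strand are those of MRPL53 with CCDC142 (45.2%), MRPS24 with URGCP-MRPS24 (23.2%) and MRPS17 with an unnamed gene (21.8%), among others. How far such sharing lowers the counts of these genes was not tested. Annotated pseudogenes exist for 36 of the genes, but pseudogene counts exceeded 5% of the parent's in 2 (MRPL53, whose own count was 0, and MRPS31).

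Before the block, the mitochondrial ribosomal protein genes more often had a lower than a higher level in knockdown cells, measured against the typical transcript. At 0 h, 28 of 77 were lower and 2 higher in knockdown than in control (edgeR's quasi-likelihood test, Benjamini-Hochberg adjusted p under 0.05, TMM scaling). Of all 16760 genes tested, 28.3% were lower and 23.8% higher, so the share lower (36.4%) was near the background and the share higher (2.60%) was below it. The median log2 fold change was -0.13 for the 77 genes and -0.04 for all genes. Most changes were small: 24 of the 28 lower genes lay between -0.16 and -0.43. In bulk RNA, fewer cells that express a gene and less RNA per cell cannot be told apart. The summed level of the 78 genes was 3491 ± 70.1 CPM in knockdown and 3968 ± 29.9 CPM in control cells (SD, n = 3 each). Among MRPL genes 15 of 48 were lower and 2 higher, and among MRPS genes 13 of 29 were lower and none higher (1 at an unadjusted p under 0.05, and none by DESeq2). Genes with a bacterial counterpart (16 of 46 lower, median -0.13) and the others (12 of 31 lower, median -0.13) had the same median.

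MRPS27, a pentatricopeptide-repeat protein of the small subunit (ENSG00000113048, chromosome 5, 72219409 to 72320646, minus strand, GRCh38), showed the largest fall of the 77 genes. Its level at 0 h was 58.7, 60.2 and 58.7 CPM in the knockdown libraries, against 146, 153 and 142 CPM in the control libraries. The groups were far apart, with every knockdown library under every control library by more than the spread within either group. The log2 fold change was -1.31 ± 0.055 (approximate SE, adjusted p = 2.57e-15), a level 0.403 times that of control. It shares 190 exonic bases (2.9%) with PTCD2 on the other strand.

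MRPS25, a small-subunit protein with no bacterial counterpart (chromosome 3, 15042460 to 15065335), had 23.4, 26.2 and 22.7 CPM in knockdown libraries and 39.1, 38.5 and 40.4 CPM in control libraries at 0 h. The libraries did not overlap, and the log2 fold change was -0.71 ± 0.075 (adjusted p = 3.71e-08). It shares 1197 exonic bases (22.2%) with NR2C2 on the other strand. MRPL19, a large-subunit protein with a bacterial counterpart (chromosome 2, 75646783 to 75690851), had 76.5, 61.8 and 58.3 CPM in knockdown and 104, 99.0 and 107 CPM in control libraries. Its highest knockdown value was the library that stood apart, and it too lay under the lowest control value. The log2 fold change was -0.66 ± 0.074 (adjusted p = 9.67e-08). MRPL48, found in mitochondria only (chromosome 11, 73787316 to 73865133), had 27.3, 24.5 and 25.2 CPM in knockdown and 37.9, 36.7 and 39.3 CPM in control libraries, a log2 fold change of -0.57 ± 0.068.

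Of the 2 higher genes at 0 h, MRPL57, a small protein of the large subunit (chromosome 13, 21176645 to 21179084), had 41.7, 46.1 and 41.8 CPM in knockdown and 37.6, 38.6 and 35.1 CPM in control libraries. The groups did not overlap, with a log2 fold change of 0.22 ± 0.074 (adjusted p = 0.0162). The call was lost without control replicate 3 at 0 h (adjusted p = 0.0743) and without the second knockdown library (adjusted p = 0.0922). The other, MRPL23, which lies near the exit of the peptide tunnel, was at 3.08, 4.25 and 4.81 CPM in knockdown and 2.42, 2.48 and 2.48 CPM in control libraries, a log2 fold change of 0.72 ± 0.183 at a level too low for more than a note; it was named because only 2 genes were higher.

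The 0 h counts moved with the handling of the libraries. Without the knockdown library that stood apart, 39 genes were lower and 7 higher, and the share over all genes was not taken for that fit. A fit to the 6 libraries of 0 h alone called 15 lower. It also called fewer of all 16760 genes lower, 2791 against 4736, and the median of all genes was 0.02. When library sizes were set to the summed ERCC counts, the median of all genes moved from -0.04 to -0.71 at 0 h, from 0.03 to -0.52 at 1.5 h and from 0.08 to -0.98 at 3.5 h; under it 75, 69 and 68 of the 77 genes (97.4%, 89.6% and 88.3%) were lower in knockdown cells at these times and none higher. Of all genes 64.1%, 49.7% and 71.7% were lower under this scaling and 5.58%, 8.20% and 4.71% higher. All genotype comparisons below are therefore relative to the typical transcript.

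**Figure D1:**
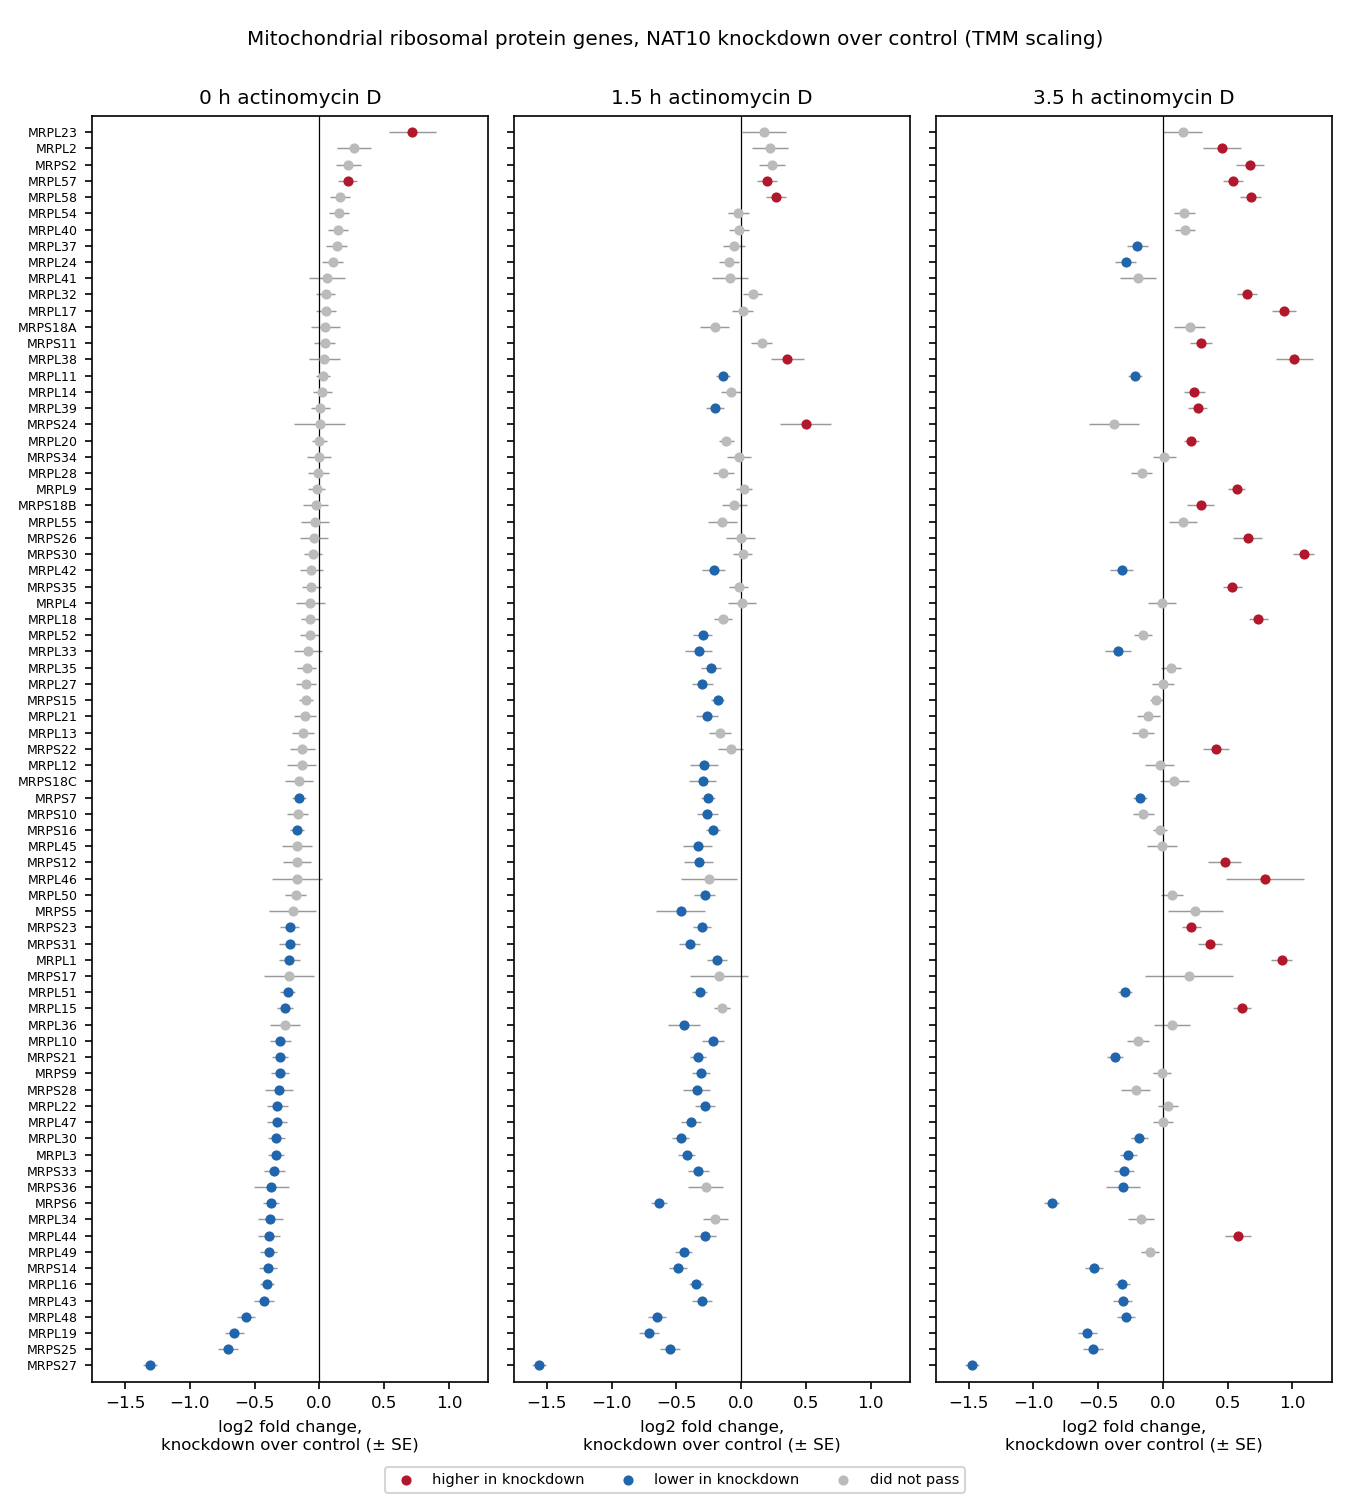
Log2 fold change of the 77 tested mitochondrial ribosomal protein genes, knockdown over control, at 0, 1.5 and 3.5 h of actinomycin D (points, with approximate SE as bars; TMM scaling, relative to the typical transcript). Genes run down the page by their 0 h value; 28 were lower at 0 h, 42 at 1.5 h and 20 at 3.5 h, while 2, 4 and 25 were higher, and MRPS27 is at the far left in each panel; with ERCC scaling no gene was higher at any of the 3 times.

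After 1.5 h of actinomycin D, 42 of 77 genes were lower and 4 higher in knockdown cells, set against 26.2% lower and 28.4% higher among all genes. The members' share lower was 54.5%, and their median log2 fold change was -0.22, with 0.03 for all genes. The summed level was 3640 ± 50.5 CPM in knockdown and 4334 ± 42.1 CPM in control cells. MRPS27 stayed lowest, with 55.2, 53.2 and 55.0 CPM in knockdown and 162, 159 and 161 CPM in control libraries (log2 fold change -1.56 ± 0.055, adjusted p = 9.35e-17). MRPL19 (-0.71 ± 0.074) and MRPL48 (-0.65 ± 0.067) followed, and in both the libraries of the 2 genotypes did not overlap. Another 12 genes that had not passed at 0 h, and did not pass at 3.5 h, were lower at this time (15.6%, against 1.63% of all genes), among them MRPL12, MRPL52, MRPS10 and MRPS15.

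The 4 higher genes at 1.5 h were MRPL57, MRPL58, MRPL38 and MRPS24. MRPL58 had 31.6, 31.8 and 27.4 CPM in knockdown and 24.8, 26.2 and 24.5 CPM in control libraries (log2 fold change 0.27 ± 0.078, adjusted p = 0.0057). MRPL38, a large-subunit protein related to phosphatidylethanolamine-binding proteins, had 7.23, 6.74 and 6.83 CPM in knockdown and 6.05, 4.62 and 5.56 CPM in control libraries (0.36 ± 0.128, adjusted p = 0.0215). MRPL38 missed the threshold by DESeq2 (adjusted p = 0.0615) and with no filter on low counts (adjusted p = 0.0734), and 2 of the 77 were higher under each. Over all genes 4284 of 16760 were higher by DESeq2 and 4866 of 39992 with no filter. MRPL38 also missed the threshold without control replicate 2 (adjusted p = 0.13) or knockdown replicate 1 (adjusted p = 0.0676) of 1.5 h. MRPL57 missed it with no filter (adjusted p = 0.0801) and without any of 3 libraries of 1.5 h, replicates 1 and 2 of control and replicate 2 of knockdown (adjusted p 0.0653 to 0.229). MRPL38 shares 37.5% of its exonic bases with an unnamed gene that had 12 counts in all, and MRPS24 averaged 2.02 CPM.

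After 3.5 h the calls were split. Of the 77 genes 25 were higher and 20 lower in knockdown cells, set against 35.0% higher and 26.4% lower among all genes. The members' shares were 32.5% and 26.0%, near the background in both directions, and the median was 0.00 (0.08 for all genes). With ERCC scaling the split was 0 higher and 68 lower. The summed level was 3856 ± 32.8 CPM in knockdown and 4045 ± 9.46 CPM in control cells. A fit to the 6 libraries of this time alone called 31 lower. It also called more of all 16760 genes lower, 5443 against 4423.

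The largest rise at 3.5 h was that of MRPS30 (ENSG00000112996, chromosome 5, 44808925 to 44820428, plus strand), a mitochondria-specific protein of the large subunit also described as pro-apoptotic. It had 40.4, 42.3 and 42.9 CPM in knockdown libraries, against 20.6, 19.3 and 19.2 CPM in control libraries. Every knockdown value was well above every control value, and the log2 fold change was 1.09 ± 0.080 (fold 2.12, adjusted p = 3.83e-11). At 0 h the same gene had 69.2, 58.0 and 56.9 CPM in knockdown and 60.8, 62.5 and 66.8 CPM in control libraries, which overlapped (-0.05 ± 0.069, adjusted p = 0.599). Without the knockdown library that stood apart MRPS30 was lower at 0 h (-0.14, adjusted p = 0.0436). MRPL38 was higher by 1.01 ± 0.143 on the log2 scale (adjusted p = 1.67e-06), with 6.95, 6.39 and 7.21 CPM in knockdown and 3.35, 2.91 and 3.92 CPM in control libraries. MRPL17, a large-subunit protein with a bacterial counterpart (chromosome 11, 6680782 to 6683401), had 19.2, 20.6 and 20.8 CPM in knockdown and 9.18, 10.5 and 11.9 CPM in control libraries (0.94 ± 0.094, adjusted p = 8.33e-09). With ERCC scaling none of these 3 rises remained at 3.5 h. MRPL38 was at -0.04, MRPL17 at -0.13 and MRPS30 at 0.03 (adjusted p = 0.912).

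The largest falls at 3.5 h were those of MRPS27, MRPS6 and MRPL19. MRPS27 had 54.1, 52.7 and 60.1 CPM in knockdown and 156, 153 and 156 CPM in control libraries (-1.48 ± 0.055, adjusted p = 2.23e-16). MRPS6, a small-subunit protein with a bacterial counterpart (chromosome 21, 34073224 to 34143034), had 44.6, 46.6 and 46.5 CPM in knockdown and 83.9, 86.2 and 80.0 CPM in control libraries (-0.86 ± 0.061, adjusted p = 2.25e-11). Its fall was less deep at 0 h, with 49.0, 44.7 and 42.3 CPM in knockdown and 59.7, 56.6 and 60.3 CPM in control libraries (-0.38 ± 0.061). Relative to the typical transcript, its control level was higher at each later time while its knockdown level stayed near 45 CPM. Scaled to the spike-in, its level at 3.5 h was under that of 0 h in both genotypes, as given below. MRPL19 was at -0.59 ± 0.074.

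**Figure D2:**
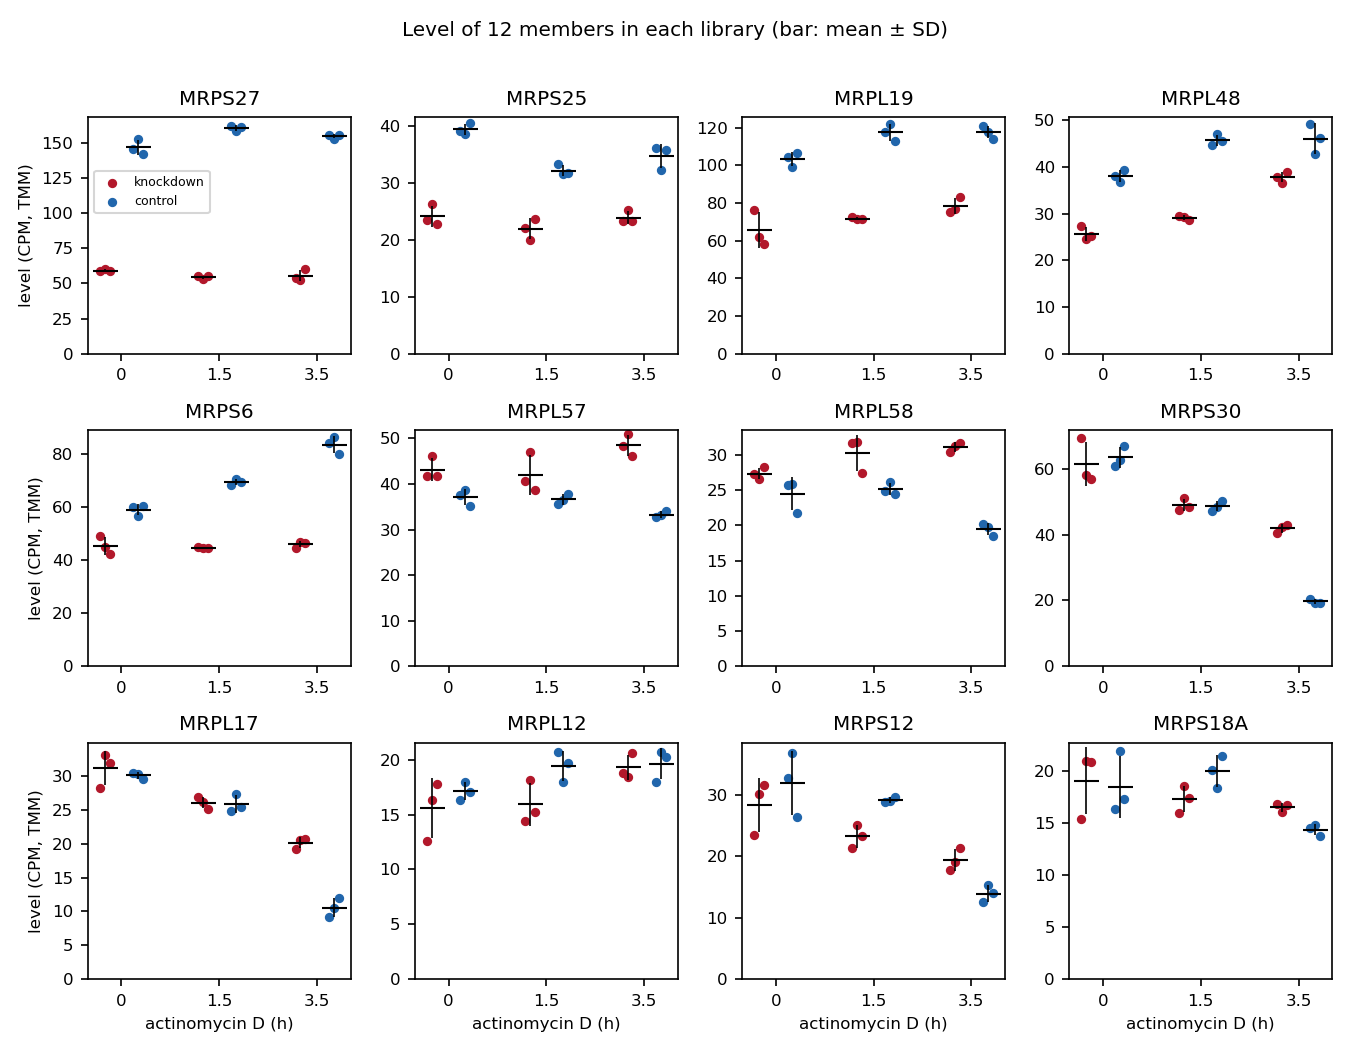
Level of 12 of the genes in each library (points, CPM with TMM scaling) at 0, 1.5 and 3.5 h of actinomycin D, knockdown in red left of control in blue, with the mean and SD of 3 libraries in black. MRPS27 lies between 52.7 and 60.2 CPM in the 9 knockdown libraries and between 142 and 162 CPM in the 9 control libraries, whereas MRPS30 and MRPL17 separate at 3.5 h. With ERCC scaling MRPL17 is not above control at 3.5 h, and MRPS30 is at a log2 fold change of 0.03, which did not pass.

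Followed over the 3 times, 14 genes were lower in knockdown cells at each (18.2%, against 14.4% of all genes): MRPL3, MRPL16, MRPL19, MRPL30, MRPL43, MRPL48 and MRPL51 of the large subunit and MRPS6, MRPS7, MRPS14, MRPS21, MRPS25, MRPS27 and MRPS33 of the small subunit. MRPL57 alone was higher at each time (1.30%, against 15.9% of all genes). Calls turned round in 5 genes, which were lower at 0 h and higher at 3.5 h (6.49%, against 4.27% of all genes): MRPL1, MRPL15, MRPL44, MRPS23 and MRPS31. MRPL1, a protein of the flexible stalk at the tRNA exit, had 51.9, 46.0 and 41.4 CPM in knockdown and 53.7, 51.9 and 57.9 CPM in control libraries at 0 h, where the highest knockdown value, in the library that stood apart, lay just under the lowest control value. At 3.5 h it had 57.4, 57.9 and 52.0 CPM in knockdown and 32.1, 29.3 and 27.2 CPM in control libraries, with no overlap. Its log2 fold change was -0.23 ± 0.078 at 0 h (adjusted p = 0.0154) and 0.92 ± 0.082 at 3.5 h (adjusted p = 1.22e-09). With ERCC scaling no gene turned round in this way. Another 19 genes were higher at 3.5 h and had not passed at 0 h (24.7%, against 14% of all genes), and 5 were lower at 3.5 h and had not passed at 0 h (6.49%, against 9.26%). At none of the times did 10 genes pass (13.0%, against 20.4%): MRPL4, MRPL13, MRPL28, MRPL40, MRPL41, MRPL54, MRPL55, MRPS17, MRPS18A and MRPS34.

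Several genes were described whatever their values. MRPL12, the stalk protein of the large subunit that also binds the mitochondrial RNA polymerase (chromosome 17, 81703357 to 81707526), had 12.6, 16.4 and 17.8 CPM in knockdown and 16.4, 18.0 and 17.1 CPM in control libraries at 0 h. The groups overlapped (-0.14 ± 0.111, adjusted p = 0.312). It was lower at 1.5 h (-0.29 ± 0.110, adjusted p = 0.0316) and lost that call when any of 4 libraries was left out, replicates 1 and 3 of control and of knockdown at that time (adjusted p 0.0692 to 0.143). An unnamed gene that had 0 counts covers 68.2% of its exonic bases. MRPS12, a protein of the decoding centre (chromosome 19, 38930548 to 38933162), had 23.4, 30.0 and 31.6 CPM in knockdown and 32.7, 36.7 and 26.4 CPM in control libraries at 0 h. The groups overlapped, with a log2 fold change of -0.17 ± 0.110 (adjusted p = 0.196). Without control replicate 3 at 0 h MRPS12 was lower at that time (-0.29, adjusted p = 0.0282). It was lower at 1.5 h (-0.33 ± 0.114, adjusted p = 0.018; 0.0871 without the first knockdown library of that time) and higher at 3.5 h (0.48 ± 0.128, adjusted p = 0.00259), with 17.8, 19.0 and 21.2 CPM in knockdown and 12.5, 15.3 and 14 CPM in control libraries at the last time. With ERCC scaling it was lower at 3.5 h (-0.61). It shares 349 exonic bases with SARS2.

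With TMM scaling and all 18 libraries, the 3 human homologues of bacterial S18 differed little between genotypes. With ERCC scaling all 3 were lower in knockdown cells at each time (-0.60 to -0.98). They were among the 75, 69 and 68 of the 77 genes lower under it at 0, 1.5 and 3.5 h. MRPS18A averaged 19.1 ± 3.18 CPM in knockdown and 18.5 ± 2.97 CPM in control cells at 0 h (SD, n = 3 each, adjusted p = 0.755) and passed at no time, but at 1.5 h it was lower (-0.21) in a fit to the compared libraries alone (adjusted p = 0.0304) and without the knockdown library that stood apart (adjusted p = 0.0458). MRPS18B averaged 17.2 ± 2.25 and 17.5 ± 0.634 CPM at 0 h in knockdown and control cells and was higher at 3.5 h by 0.29 ± 0.106 (adjusted p = 0.0216), a call lost with DESeq2's test (adjusted p = 0.0771) or size factors (adjusted p = 0.0582) or without any of 3 libraries of that time, replicates 2 and 3 of control and replicate 1 of knockdown (adjusted p 0.0615 to 0.121). MRPS18C averaged 21.1 ± 3.67 and 23.5 ± 1.30 CPM at 0 h in knockdown and control cells. Without the knockdown library that stood apart MRPS18C was lower at 0 h (-0.29, adjusted p = 0.00965). In the main fit it was lower at 1.5 h (-0.30 ± 0.105, adjusted p = 0.0205). That call was lost without any of 3 libraries of 1.5 h, replicates 1 and 2 of control and replicate 2 of knockdown (adjusted p 0.0546 to 0.0959). MRPS18A shares 47.0% of its exonic bases with RSPH9 and MRPS18C 40.2% with ABRAXAS1, both on the other strand. MRPL58 was not called at 0 h (0.16 ± 0.078, adjusted p = 0.0886) and at 3.5 h had 30.4, 31.3 and 31.7 CPM in knockdown and 20.1, 19.8 and 18.5 CPM in control libraries, without overlap (0.68 ± 0.081, adjusted p = 1.38e-07); with ERCC scaling the sign was negative (-0.39). MRPS36 had 5.98, 5.32 and 6.04 CPM in knockdown and 6.54, 7.76 and 8.14 CPM in control libraries at 0 h (-0.37 ± 0.137, adjusted p = 0.026), a call lost with the 6 libraries alone, with no filter and without any of 3 libraries of 0 h, replicates 2 and 3 of control and replicate 2 of knockdown (adjusted p 0.0578 to 0.105).

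Under the block the RNA of these genes fell in both genotypes when scaled to the spike-in. From 0 to 3.5 h, 77 of 77 were lower in knockdown cells (97.3% of all genes) and 74 of 77 in control cells (81.1% of all genes), and none was higher in either by edgeR, at an unadjusted p under 0.05 or by DESeq2. The shares were near or somewhat above those backgrounds. The median log2 change was -1.39 in knockdown and -1.16 in control cells (-1.47 and -1.14 over all genes). From 0 to 1.5 h, 43 of 77 were lower in knockdown cells (47.4% of all genes) and 66 of 77 in control cells (74.6% of all genes), with medians of -0.49 and -0.55. The 1.5 h counts rest on few libraries: without the second knockdown library of 1.5 h the knockdown count was 8, without the library that stood apart it was 16, and without the first control library of 0 h the control count was 23. With TMM scaling, which takes out the common loss, 11 were lower and 30 higher at 3.5 h in knockdown cells (14.3% and 39.0%, against 22.8% and 25.1% of all genes), and 33 lower and 24 higher in control cells (42.9% and 31.2%, against 34.6% and 31.6% of all genes).

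In percentages, over the 72 genes with at least 5 CPM, the level left at 3.5 h ran from 21.3% (MRPL44) to 50.9% (MRPL48) with a median of 38.4% in knockdown cells, and from 14.2% (MRPS30) to 76.5% (MRPL42) with a median of 45.0% in control cells. At 1.5 h it ran from 54.1% to 82.3% (median 72.0%) in knockdown and from 48.4% to 80.9% (median 68.7%) in control cells. The genes were thus more alike in knockdown cells: the SD of the fitted decay slope over the 77 genes was 0.0999 per hour on the log2 scale in knockdown and 0.182 in control cells. The same narrowing was seen over all genes, with SDs of 0.140 and 0.262.

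Among genes with at least 5 CPM, the fastest lost in both genotypes were MRPL44, MRPL17 and MRPS30. Below that level MRPS17 averaged 12% left in knockdown and 11.7% in control cells at 3.5 h, and MRPL23 58.1% and 108.7%. MRPS30 had 24.2, 25.6 and 20.4% of its 0 h level left at 3.5 h in knockdown and 12.7, 16.4 and 13.6% in control libraries. The groups did not overlap, and the log2 change from 0 h was -2.09 ± 0.206 in knockdown and -2.81 ± 0.214 in control cells. MRPL44, which has a ribonuclease III-like fold (chromosome 2, 223957404 to 223967714), had 23.1, 22.3 and 18.3% left in knockdown and 13.4, 16.9 and 13.5% in control libraries. MRPL17 had 23.2, 25.2 and 19.8% left in knockdown and 11.9, 18.7 and 17.7% in control libraries. Its highest control value was still under its lowest knockdown value. Each percentage was taken against the mean of the 0 h libraries, so it leaves out the spread between them. The difference of decay slope between genotypes, tested below, did not pass for MRPS30, MRPL44 or MRPL17.

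Among genes with at least 5 CPM, the slowest lost were MRPL48, MRPL33 and MRPL42 in knockdown cells and MRPL42, MRPL33 and MRPL11 in control cells. MRPL42, a mitochondria-only protein (chromosome 12, 93467488 to 93516213), had 49.8, 52.3 and 41.1% left at 3.5 h in knockdown and 68, 90.3 and 71.2% in control libraries. Control libraries were all above knockdown libraries but spread widely, and the loss in control cells did not pass the test (-0.39 ± 0.196, adjusted p = 0.0587), while that in knockdown cells did (-1.07 ± 0.197, adjusted p = 9.61e-08). MRPL33, a protein with a bacterial counterpart (chromosome 2, 27771717 to 27988087), had 47.8, 57.5 and 37.9% left in knockdown and 65.1, 89.1 and 73.7% in control libraries (-0.39 ± 0.204 in control cells, adjusted p = 0.0643). The control losses of MRPL42 and MRPL33 passed without any of 3 libraries, the second of control at 0 or 3.5 h or the knockdown library that stood apart (adjusted p 0.0139 to 0.041). MRPL11, of the GTPase-associated centre (chromosome 11, 66435075 to 66466738), had 48.1, 49.2 and 39.1% left in knockdown and 57.9, 82.9 and 69.9% in control libraries. MRPL48 had 54.8, 53.4 and 44.3% left in knockdown and 50.6, 60.1 and 54.3% in control libraries, which overlapped. For MRPL42, MRPL33, MRPL11 and MRPL48 the difference of decay slope between genotypes, tested below, did not pass.

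**Figure D3:**
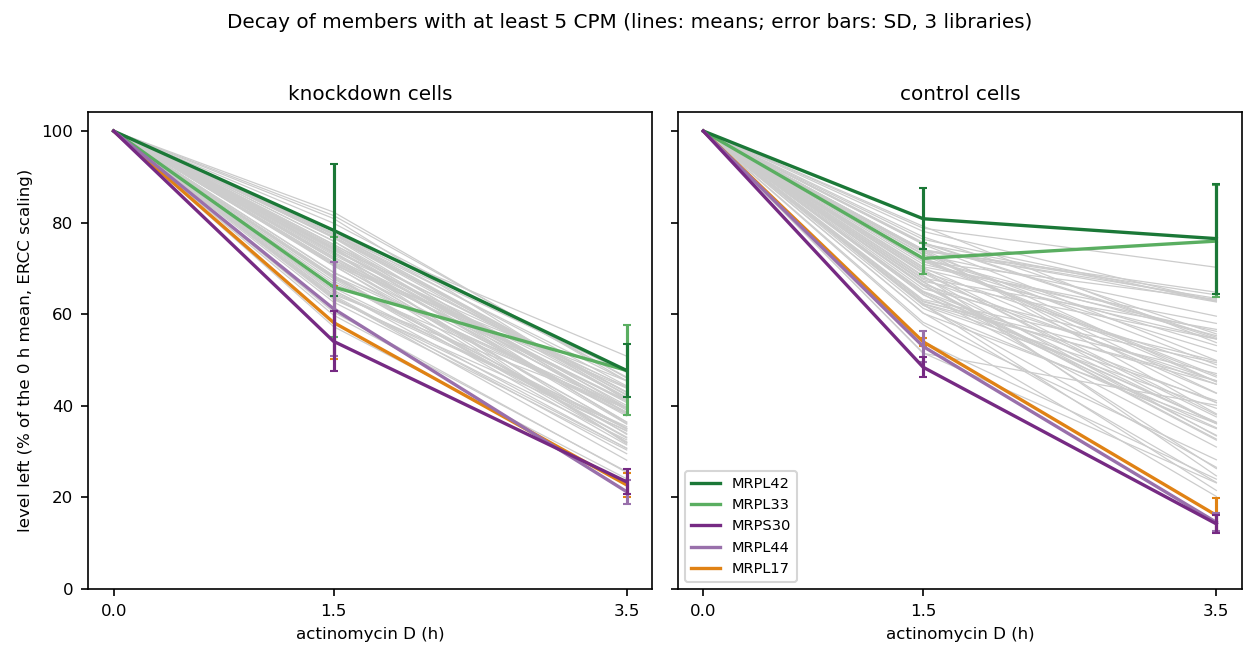
Level left after actinomycin D, as a percentage of that genotype's own 0 h mean (ERCC scaling), in knockdown cells (left) and control cells (right), for the 72 genes with at least 5 CPM; lines join means, and bars are SDs of 3 libraries for 5 named genes. At 3.5 h the genes spread from 21.3% to 50.9% in knockdown and from 14.2% to 76.5% in control cells, with MRPS30, MRPL44 and MRPL17 at the low end in both.

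Whether decay differed between genotypes was tested as the difference of the decay slope, that is, the log2 change per hour of block in knockdown minus that in control cells. Of the 77 genes 2 had a more negative slope in knockdown cells and none a less negative one (edgeR quasi-likelihood test), set against 11% and 2.40% of all genes. The members' share of more negative slopes was 2.60%. At an unadjusted p under 0.05 the counts were 10 and 2, against 4183 and 858 of all 16760 genes. By DESeq2 they were 4 and 0, against 1889 and 398. The fitted difference was below 0 in 57 of the 77 genes (74.0%) and in 72.6% of all genes, with medians of -0.07 and -0.10.

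The genes that passed were MRPS6 and MRPL24. MRPS6 had 36.4, 38.4 and 30.0% of its level left at 3.5 h in knockdown and 55.6, 78.2 and 60.6% in control libraries, without overlap. Its slopes were -0.44 ± 0.059 in knockdown and -0.17 ± 0.057 in control cells, a difference of -0.26 ± 0.081 per hour (adjusted p = 0.0169). MRPL24, a protein that binds early to the large ribosomal RNA (chromosome 1, 156737303 to 156741590), had 36.5, 40.9 and 31.8% left in knockdown and 51.3, 70.5 and 66.9% in control libraries, a slope difference of -0.23 ± 0.085 (adjusted p = 0.0472). MRPL24 lost its call without any of 13 of the libraries (adjusted p 0.0526 to 0.144) and under the replicate block (adjusted p = 0.0508), and MRPS6 without the knockdown library that stood apart (adjusted p = 0.081), without knockdown replicate 3 of 3.5 h (adjusted p = 0.0621) or without the second control library of 3.5 h (adjusted p = 0.104). The number of more negative slopes ran from 0 to 9 over the libraries left out, the 9 being found without the first control library at 0 h.

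With TMM scaling the same term asks whether the genotype difference changed over time relative to the typical transcript, and there 19 genes were positive (24.7%, against 20.5% of all genes) and 4 negative (5.19%, against 11.1%). MRPS30 (0.33 ± 0.046 per hour, adjusted p = 1.8e-05) and MRPL1 (0.33 ± 0.060, adjusted p = 0.000189) had the largest positive values, and MRPS6 the largest negative value (-0.14 ± 0.027, adjusted p = 0.000514). Over all genes the median of this term was 0.02 with TMM and -0.10 with ERCC scaling.

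The authors' deposited table gives a half-life per gene and genotype, with no error, for 74 of the 78 genes, and in both genotypes for 73. Over the 73 genes with both values in the authors' deposited table, half-lives ran from 1.67 to 3.61 h in knockdown cells (median 2.62 h) and from 1.38 to 9.74 h in control cells (median 3.10 h), so over these genes the longest was 2.16 times the shortest in knockdown and 7.05 times in control cells. The authors' deposited table gives MRPL23 a value in knockdown cells only, 4.17 h. They were shorter in knockdown cells for 58 of the 73 genes (79.5%), against 67.4% of 12306 genes in the authors' deposited table. The longest control half-lives in the authors' deposited table were those of MRPL42 (3.39 h in knockdown, 9.74 h in control), MRPL33 (3.07 and 9.45 h) and MRPL11 (3.19 and 7.42 h). The shortest control half-lives in the authors' deposited table were those of MRPS30 (1.67 h in knockdown, 1.38 h in control), MRPL44 (1.76 and 1.48 h) and MRPL17 (1.73 and 1.54 h). These are the genes at either end of the percentages above, as the same libraries underlie both. In 6 genes (MRPL11, MRPL24, MRPL33, MRPL37, MRPL42 and MRPS6) the values in the authors' deposited table differed more than 2-fold between genotypes, each shorter in knockdown cells, which is 8.22% of the 73 genes against 18.3% of the 12306 genes there. MRPL38 had the largest difference the other way in the authors' deposited table, 2.44 h in knockdown and 1.68 h in control cells. A half-life set by a slope near 0 is poorly held: the control slopes of MRPL42 (-0.11 ± 0.056, adjusted p = 0.0672) and MRPL33 (-0.10 ± 0.059, adjusted p = 0.0904) did not differ from 0 by the test.

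**Figure D4:**
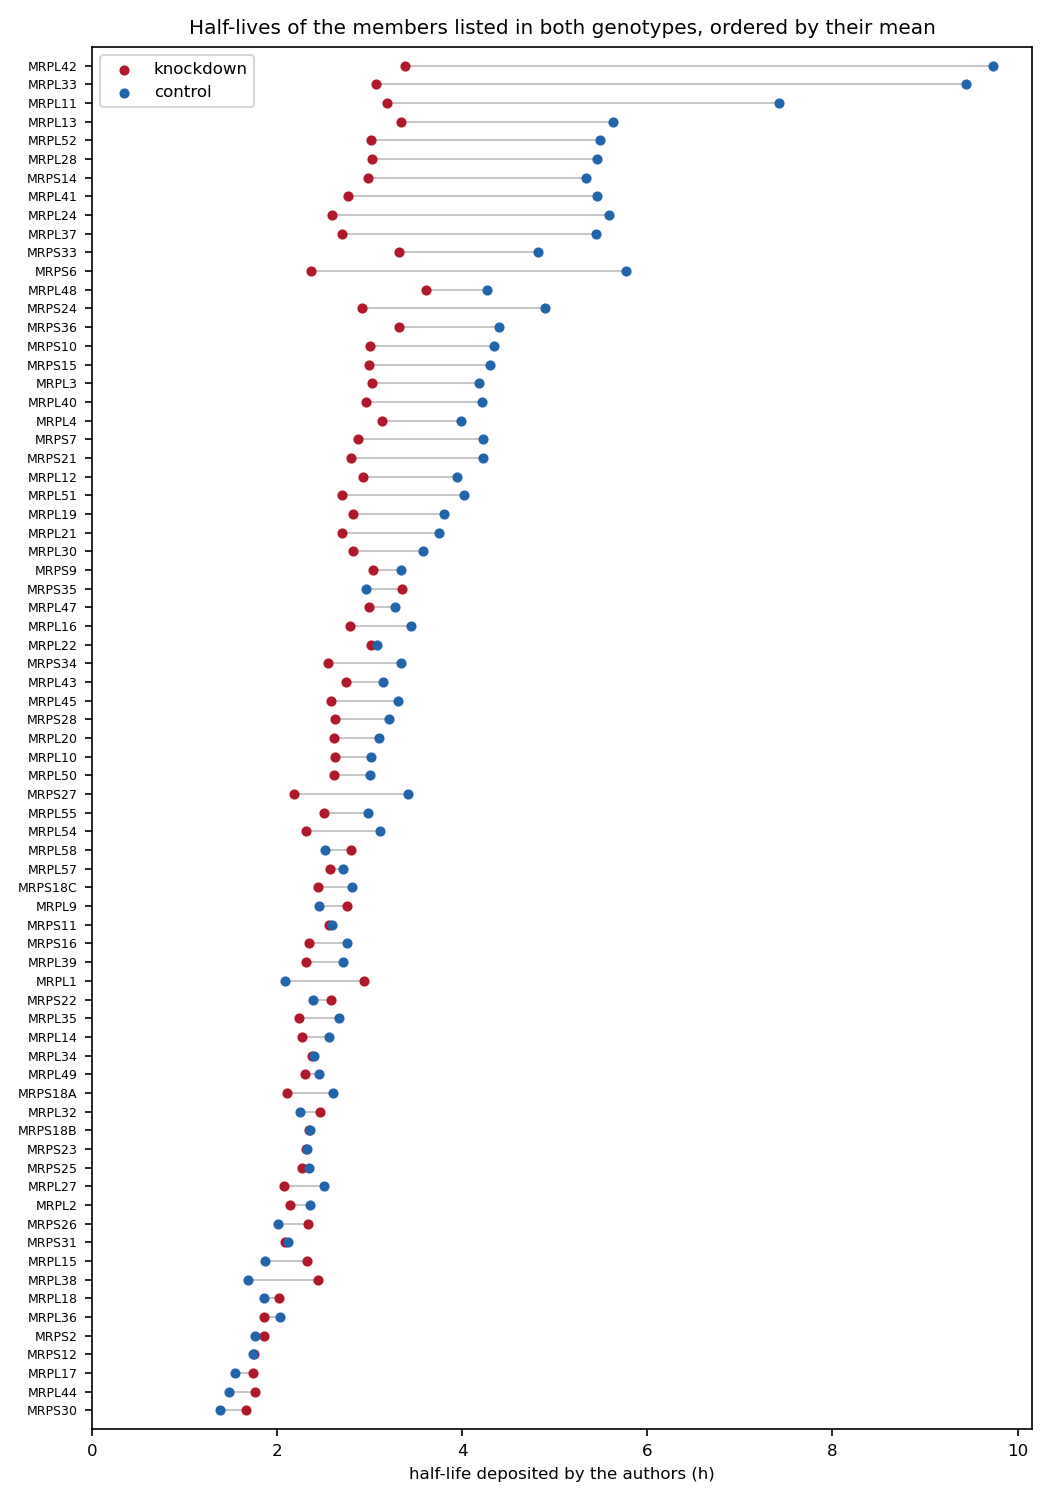
Half-lives in hours from the authors' deposited table for the 73 genes listed in both genotypes (knockdown in red, control in blue, joined by a grey line; no error is given), ordered by their mean. Knockdown values lie between 1.67 and 3.61 h, while control values reach 9.74 h for MRPL42.

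Other genes of the same pathway are given from fixed lists. Over all genes tested 28.3% were lower and 23.8% higher at 0 h, and 26.4% lower and 35.0% higher at 3.5 h. Of 5 mitoribosomal proteins with other symbols, 3 were lower (60%) and none higher at 0 h (1 at an unadjusted p under 0.05, none by DESeq2). DAP3, the GTP-binding protein of the small subunit, averaged 55.4 ± 2.04 CPM in knockdown and 97.3 ± 4.91 CPM in control cells (-0.81 ± 0.056, adjusted p = 2.55e-11), a fall second in size to that of MRPS27 among all mitoribosomal proteins measured. CHCHD1 (-0.23 ± 0.093, adjusted p = 0.0411) and PTCD3 (-0.14 ± 0.059, adjusted p just under the threshold), also of the small subunit, were the other two. Of 29 assembly and ribosomal RNA modification factors 10 were lower (34.5%) and 2 higher (6.90%) at 0 h. At 3.5 h 4 of them were lower (13.8%) and 13 higher (44.8%). FASTKD2, which binds the large ribosomal RNA, averaged 75.1 ± 6.65 CPM in knockdown and 118 ± 5.05 CPM in control cells at 0 h (-0.66 ± 0.075), and NOA1, a GTPase of small-subunit assembly, 19.6 ± 0.321 and 27.8 ± 0.749 CPM (-0.50 ± 0.076). Of 17 translation factors 9 were lower (52.9%) and none higher at 0 h (none at an unadjusted p under 0.05 and none by DESeq2). The smallest p was that of OXA1L, which inserts new proteins into the inner membrane (-0.36 ± 0.057). Of 16 genes for expression and upkeep of mitochondrial DNA 8 were lower (50%) and none higher at 0 h (none at an unadjusted p under 0.05 and none by DESeq2). They were led by the transcription factor TFB2M (20.2 ± 2.71 CPM in knockdown and 32.4 ± 2.55 CPM in control cells, -0.68 ± 0.089).

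In the decay slope, the helicase DDX28 of large-subunit assembly had a less negative slope in knockdown cells by 0.72 ± 0.115 per hour (adjusted p = 2.1e-07), with 4.25 ± 0.708 CPM in knockdown and 0.703 ± 0.277 CPM in control cells at 3.5 h. RPUSD3, a pseudouridine synthase relative, had a more negative one (-0.29 ± 0.081, adjusted p = 0.00842). Of the factors for mitochondrial DNA, TFB2M (0.33 ± 0.090, adjusted p = 0.00534) and MTERF1 (0.30 ± 0.110, adjusted p = 0.0466) had less negative slopes, as did the translation activator TACO1 (0.34 ± 0.115, adjusted p = 0.0337).

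Set beside these, 52 of 81 cytosolic ribosomal protein genes were lower (64.2%) and 4 higher (4.94%) in knockdown cells at 0 h. At 3.5 h 67 were lower (82.7%) and 4 higher (4.94%), and the medians at the 2 times were -0.23 and -0.32. Of 76 nuclear genes for oxidative phosphorylation subunits 35 were lower (46.1%) and 5 higher (6.58%) at 0 h. At 3.5 h 50 were lower (65.8%) and 4 higher (5.26%), and the medians were -0.16 and -0.26. In both lists genes lower in knockdown cells made up most of the calls at 3.5 h. The mitochondrial ribosomal protein genes had 20 lower and 25 higher at that time. Calls were also split among the 17 translation factors, with 6 lower (35.3%) and 5 higher (29.4%). Among the 16 genes for mitochondrial DNA 5 were lower (31.25%) and 6 higher (37.5%). Of the 5 mitoribosomal proteins with other symbols 2 were lower (40%) and 0 higher (1 at an unadjusted p under 0.05). Differences between lists were not tested. The last list held 13 messages encoded in mitochondrial DNA, which the mitochondrial ribosome translates and which oligo(dT) capture samples through their short tails. Of these 13, 9 were lower (69.2%) and 1 higher (7.69%) at 0 h, and 2 lower (15.4%) and 9 higher (69.2%) at 3.5 h. Over all genes tested 28.3% were lower and 23.8% higher at 0 h, and 26.4% lower and 35.0% higher at 3.5 h. All counts in this paragraph are relative to the typical transcript.

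Features of the messages were set against the fold changes for the 70 genes with a principal coding transcript in GENCODE v29. Their coding sequences ran from 195 to 1317 bases (median 585), 16.8% to 34.6% of the coding bases were cytidine (median 24.4%), and GC content ran from 38.4% to 68.1%. Genes with more cytidine in the coding sequence had less negative fold changes at 0 h (Spearman's rho 0.46 over the 70 genes, 0.19 over 9624 protein-coding genes) and at 1.5 h (0.53 and 0.21), and less so at 3.5 h (0.18 and 0.06). GC content gave nearly the same values (0.44, 0.50 and 0.14). Correlations of length with the fold changes varied between the times. For the length of the 3′ untranslated region, rho at 0, 1.5 and 3.5 h was -0.34, -0.26 and -0.14. Over all protein-coding genes these values were -0.01, 0.01 and 0.04. For coding length the values in the same order were 0.11, 0.16 and 0.35 (-0.03, 0.03 and 0.05 over all). These are descriptions across genes measured in the same libraries, which share depth and base composition, and genes are not independent replicates. By promoter motif, among genes with a window the ETS core was held by 12 of the 24 that were lower at 0 h and 17 of the 43 that did not pass, the YY1 site by 1 of 24 and 12 of 43, and the NRF1 site by 1 of 24 and 5 of 43; these counts were not tested.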

How the data were processed

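RNA of 18 libraries was analysed from the authors' deposited read counts per gene and ERCC transcript. Per the submitters' processing notes fastp 0.21.1, HISAT2 2.2.1, SAMtools 1.12 and featureCounts 2.0.3 were used with hg38; which annotation release and strand setting were used is not stated there. The authors also deposited half-lives in hours (another unit, with no error) and the log2 ratio of knockdown over control half-life; 18 per-library signal columns of that table were not used. Genes were annotated with GENCODE v29, in which 58308 of the 61860 identifiers were found.

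The 16760 genes left by edgeR's filterByExpr were fitted together over the 18 libraries with edgeR 4.0.16 (R 4.3.3), quasi-likelihood F-tests and Benjamini-Hochberg adjustment over all of them, threshold 0.05. Knockdown was compared with control under TMM scaling; decay and its difference used summed ERCC counts as library sizes. The approximate SE is the log2 change divided by the square root of F. The biological coefficient of variation was 6.29% with TMM and 16.3% with ERCC scaling. DESeq2 1.42.0, other scalings, filters, samples, a replicate block and leaving out each library were alternatives, and the scripts were tested on simulated data. Same-numbered libraries did not deviate together, so numbers were not taken as pairs. The members and gene lists were chosen with earlier results of these data known. Named genes were those with at least 5 CPM and the 3 largest changes per direction, past the threshold and without overlap between libraries, plus a fixed set (MRPL12, MRPS12, the MRPS18 genes, MRPL58, MRPS30 and MRPS36).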

Additional observations from a re-analysis of the deposited data

Results flagged for a closer look

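Terms for a difference between genotypes over time passed the test under either scaling, and each is given as the log2 change per hour in knockdown minus that in control. With ERCC scaling the decay slope differed by -0.26 for MRPS6 and by -0.23 for MRPL24.

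With TMM scaling, which measures against the typical transcript, the term passed in 23 of the 77 genes. It was negative for MRPS6 (-0.14), MRPL24 (-0.11), MRPL37 (-0.093) and MRPL11 (-0.068). Among MRPL genes it was positive for MRPL1 (0.33), MRPL38 (0.28), MRPL44 (0.27), MRPL15 (0.25), MRPL17 (0.25), MRPL18 (0.24), MRPL32 (0.17), MRPL9 (0.17), MRPL58 (0.15), MRPL57 (0.097) and MRPL48 (0.087). Among MRPS genes it was positive for MRPS30 (0.33), MRPS26 (0.20), MRPS12 (0.19), MRPS35 (0.18), MRPS31 (0.18), MRPS22 (0.16), MRPS23 (0.13) and MRPS2 (0.13). MRPL1, MRPL15, MRPL44, MRPS23 and MRPS31 were described above as lower at 0 h and higher at 3.5 h in the same libraries, so the sign of their term restates that pattern.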

How the results depend on the processing

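Counts are given as higher and lower in knockdown, or in the later time. With ERCC scaling the genotype counts were 0 and 75 at 0 h, 0 and 69 at 1.5 h and 0 and 68 at 3.5 h. Under it values turned negative at 0 h for MRPL57 (-0.45), MRPL58 (-0.51) and MRPS18A (-0.63), at 1.5 h for MRPL38 (-0.19), MRPL57 (-0.36), MRPL58 (-0.28) and MRPS30 (-0.53), and at 3.5 h for MRPL17 (-0.13), MRPL38 (-0.042), MRPL58 (-0.39), MRPS12 (-0.61), MRPS18A (-0.86), MRPS18B (-0.75) and MRPS18C (-0.98). The compared libraries alone gave 15 lower at 0 h and 31 lower at 3.5 h, where 2791 and 5443 of all 16760 genes were lower. Under them MRPS18B was at 0.032 and MRPS30 at 0.013 at 0 h. DESeq2, and no filter, gave 2 higher at 1.5 h, where 4284 of 16760 and 4866 of 39992 genes were higher. MRPS30 was at -0.0025 with DESeq2's test and size factors. With TMM scaling the decay counts were 3 and 2 (knockdown, 1.5 h), 30 and 11 (knockdown, 3.5 h), 21 and 4 (control, 1.5 h) and 24 and 33 (control, 3.5 h). At 1.5 h these were 3.9% and 2.6% in knockdown cells, against 8.95% and 8.05% of all genes. In control cells they were 27.3% and 5.19%, against 11.2% and 15.2%. At 3.5 h MRPL33 (0.48), MRPL42 (0.49) and MRPL48 (0.56) turned positive in knockdown cells, and MRPL11 (0.62), MRPL33 (0.74) and MRPL42 (0.74) in control cells. More negative slopes numbered 0 from 0 and 1.5 h only, 0 from 0 and 3.5 h only, 7 from 1.5 and 3.5 h only, 4 by DESeq2, 1 with no filter and 1 with the replicate block. In the same order they numbered 0, 1003, 4726, 1889, 1267 and 1756 over all genes, which were 16760, or 39992 with no filter. With TMM scaling 19 were positive and 4 negative. The cause of these changes was not tested.

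Leaving out each library in turn, the genotype counts ran from 1 to 7 higher and 24 to 39 lower at 0 h, 1 to 5 and 32 to 48 at 1.5 h, and 23 to 26 and 17 to 25 at 3.5 h. Decay called 8 to 61 lower at 1.5 h and 77 at 3.5 h in knockdown, 23 to 75 and 72 to 76 in control, and 0 higher throughout; slopes ran from 0 to 2 less negative and 0 to 9 more negative. Values that crossed 0 ran from -0.037 to 0.18 for MRPS18A, -0.14 to 0.048 for MRPS18B and -0.14 to 0.0045 for MRPS30 at 0 h, -0.10 to 0.0089 for MRPS18B and -0.020 to 0.033 for MRPS30 at 1.5 h, and -0.086 to 0.012 for MRPL12 and -0.0048 to 0.16 for MRPS18C at 3.5 h. Counts over all genes were not taken for the fits that left out a library. The replicate block gave 2 and 28, 5 and 41, and 25 and 19 at the 3 times. Over all 16760 genes it gave 3969 and 4733, 4728 and 4385, and 5844 and 4400. Over 52 pairs of a named gene and a comparison, 1135 of 1252 values kept their direction and side of the threshold. The call was lost in 60 and gained in 20, and 37 changed sign. Of the 1135, 869 came from leaving out 1 library, which often lay outside the groups compared, so little change could arise there. With ERCC scaling 14 were kept, 14 changed sign, 9 gained the call and 1 lost it. With TMM scaling 8 were kept and 6 changed sign.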
